A study of Mus musculus with 8 samples.

Results

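The 37 genes described here code for the digestive enzymes of the pancreatic acinar cell, for proteins that travel with them in the zymogen granule, and for transcription factors that direct this programme. They were chosen by symbol from a fixed list, all 37 had a row in the deposited files, and they stand among 23284 genes in all. The study sorted pancreatic endocrine cells, so these are genes of a neighbouring cell type read in libraries that were meant to hold islet cells. The list holds 6 trypsinogens, 3 chymotrypsinogens, 3 elastases, 2 carboxypeptidases, 6 lipases and lipase partners, 3 amylases, 9 other secreted or granule proteins, and 5 transcription factors.

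RNA was sequenced from 8 libraries of sorted mouse pancreatic cells at embryonic day 17. The 4 KO libraries, replicates 8, 9, 17 and 24, came from Neurod1 floxed/floxed embryos, and the 4 Het libraries, replicates 6, 7, 13 and 19, came from Neurod1 floxed/wt embryos. Both groups carried Neurog3-Cre and the Rosa-Tomato reporter on a background the labels write as C56BL/J, and flow cytometry gathered the cells that showed Tomato. The Cre thus acted in cells that had used the Neurog3 promoter and in their descendants, and the Het libraries, which serve as the reference, also lack 1 copy of Neurod1 in those cells. The labels do not say whether replicates were separate embryos, litters or pools, so p-values reflect only how these libraries vary, which may be technical. Setting KO against Het asks what loss of Neurod1, a basic helix-loop-helix factor of islet development, does to gene expression in these cells.

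Acinar cells make up most of the pancreas and release inactive enzyme precursors, called zymogens, into the ducts for digestion in the gut. Acinar and endocrine cells descend from the same pancreatic progenitors, and endocrine cells arise from those that switch on Neurog3. Acinar enzyme genes are driven by the PTF1 complex, in which Ptf1a and a common E protein bind the letters CANCTG while Rbpjl or its relative Rbpj binds TTTCCC close by, and Nr5a2 binds CAAGGTCA.

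The promoters of the members were searched for these letters. Whether the letters bear on how the members rank the libraries was not tested. RefSeq (GRCm38.p6) promoter entries matched 29 of the 37 genes and gave 31 entries, of which the 250 bases before the start were read on both strands. The pair of interest was CANCTG followed on the same strand, after 0 to 30 bases, by TTTCCC. It was present in 3 of the 31 member promoters, or 9.68%, and in 338 of all 32851 promoters, or 1.03%. Counted with or without the pair, CANCTG was in 74.2% of member promoters and 44.8% of all promoters, and TTTCCC in 25.8% and 21.9%. CAAGGTCA was in 6.45% and 1.33%. These shares describe letters in a window. The motif letters were picked after the Ctrb1 promoter had been read, so its match is no independent observation. The promoters with the pair are shown because 1 of them belongs to the most abundant member. They lie at chr8:111691011-111691260 on the minus strand for Ctrb1, chr15:100687921-100688170 on the minus strand for Cela1, and chr6:41458680-41458929 on the plus strand for Prss1. Each is written 5′ to 3′ in the direction of its gene and ends at the base before the start, and capitals mark only the letters of the pair.
Ctrb1: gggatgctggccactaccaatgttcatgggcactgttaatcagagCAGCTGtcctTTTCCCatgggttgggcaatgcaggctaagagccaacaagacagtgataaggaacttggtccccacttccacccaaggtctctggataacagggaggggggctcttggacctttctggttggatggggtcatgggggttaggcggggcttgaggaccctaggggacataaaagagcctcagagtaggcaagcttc
Cela1: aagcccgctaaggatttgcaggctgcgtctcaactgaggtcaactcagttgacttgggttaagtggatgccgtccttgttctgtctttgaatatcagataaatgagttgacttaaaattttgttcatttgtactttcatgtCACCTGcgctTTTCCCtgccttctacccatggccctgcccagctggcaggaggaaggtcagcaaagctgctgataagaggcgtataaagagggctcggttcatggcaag
Prss1: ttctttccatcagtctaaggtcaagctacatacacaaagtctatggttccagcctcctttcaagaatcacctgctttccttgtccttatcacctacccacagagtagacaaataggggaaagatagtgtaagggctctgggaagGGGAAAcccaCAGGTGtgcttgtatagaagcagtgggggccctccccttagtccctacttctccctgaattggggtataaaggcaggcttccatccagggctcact
In Ctrb1 the pair began 205 bases before the start, in Cela1 109 bases and in Prss1 106 bases. In Prss1 the pair ran on the opposite strand and so reads as its reverse complement. All 3 pairs had 4 bases between CANCTG and TTTCCC.

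Neurod1, the targeted gene, was at 2.55, 12.9, 22.2 and 21.5 CPM in KO 8, KO 9, KO 17 and KO 24, against 133, 138, 141 and 210.5 CPM in Het 6, Het 7, Het 13 and Het 19 (CPM are reads of a gene scaled to a common library size with TMM factors). Every KO library lay below every Het library, with an adjusted p of 0.0165 by edgeR's test. KO 8 stood apart from the rest in mesenchyme and leukocyte markers, and KO 9 in leukocyte markers, with values given at the end, so the acinar results are also given without each of them.

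Libraries held 10350040 to 16080392 counts, and the members took 2.18%, 6.43%, 2.72% and 1.88% of all counts in KO 8, KO 9, KO 17 and KO 24, against 4.40%, 1.52%, 2.92% and 2.05% in Het 6, Het 7, Het 13 and Het 19. The widest 95% Wilson interval on these shares was 0.0273 percentage points, so counting error was small beside the spread between libraries; the interval covers counting error only. KO 9 and Het 6, 1 library of each genotype, were the 2 highest. The share averaged 3.30% ± 2.11 in KO and 2.72% ± 1.26 in Het (SD, n = 4 each), a ratio of the means of 1.21. Without KO 9 the KO mean was 2.26%, below the Het mean of all 4 libraries, and without KO 8 it was 3.68%. With Het 6 left out the Het mean was 2.17%, below the KO mean without KO 9. The highest share was 4.23 times the lowest over all libraries, 3.42 times within KO and 2.89 times within Het, so libraries of the same genotype differed by more than the genotype means. In bulk RNA, fewer acinar cells and less RNA per acinar cell cannot be told apart. Which cells the acinar reads came from was not tested.

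**Figure D1:**
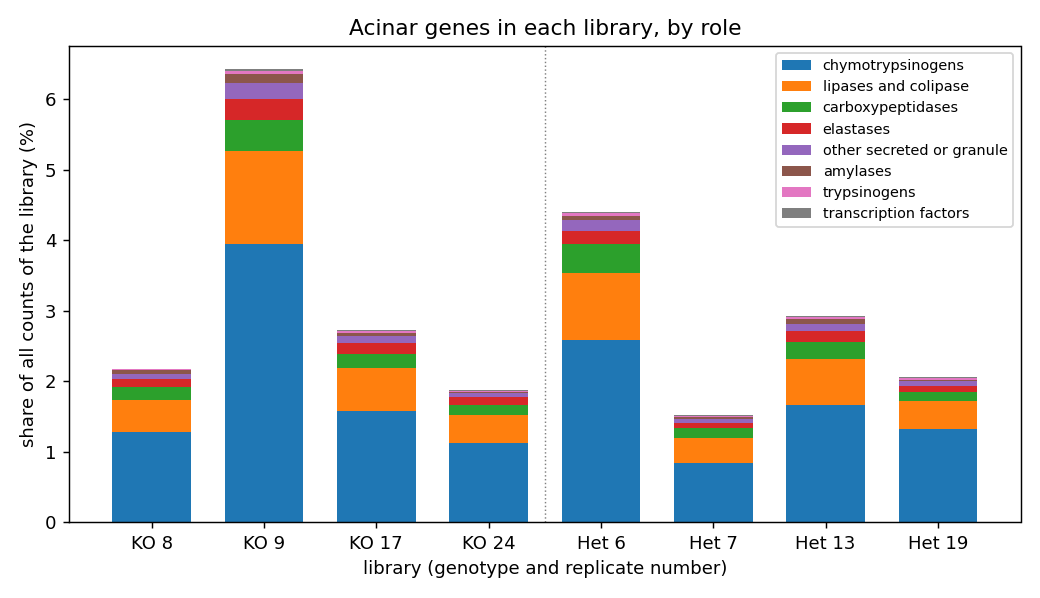
Share of all counts (%) taken by the 37 acinar genes in each library, with KO libraries on the left and Het libraries on the right and colours for the 8 role groups. KO 9 reached 6.43% and Het 6 reached 4.40%, and chymotrypsinogens, almost all Ctrb1, filled the largest part of every bar.

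No acinar gene passed the test of a difference between the genotypes. Of the 37 members, 36 passed the filter on low counts and were tested by edgeR's quasi-likelihood F test within a fit of all 14116 tested genes. Of these 0 were higher and 0 lower in KO at an adjusted p under 0.05, where 1.02% of all tested genes were called. At an unadjusted p under 0.05 there were also 0 members, against 12.2% of all tested genes. DESeq2 called 0 members and 3.83% of the genes it tested, and limma-voom with sample quality weights called 0 members and 3.54%. The KO and Het values overlapped in every one of the 36 members, while 8.03% of all tested genes had groups that did not overlap. The log2 fold change was positive for 26 members and negative for 10, with a median of 0.22 against 0.033 for all tested genes, and it ran from -0.58 for Pla2g1b to 0.80 for Gp2. The members vary together between libraries, as described below, so these counts of members are not separate observations. They do not show that acinar genes changed less than other genes. Adjusted p-values ran from 0.563 to 0.998 by edgeR's test. By the authors' deposited table, members with an adjusted p under 0.05 numbered 0 and the smallest was 1, where 184 of 18760 genes passed.

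The direction of the members' median rested on KO 9. Without it the median log2 fold change was -0.23, with 3 members positive and 33 negative, and without Het 6 it was 0.52, with 32 positive and 4 negative. Without KO 17 the median was 0.25, without Het 13 it was 0.28, without Het 7 it was 0.020, without Het 19 it was 0.066, without KO 24 it was 0.36 and without KO 8 it was 0.34. In each of these 8 fits 0 members were called, by edgeR's test.

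**Figure D2:**
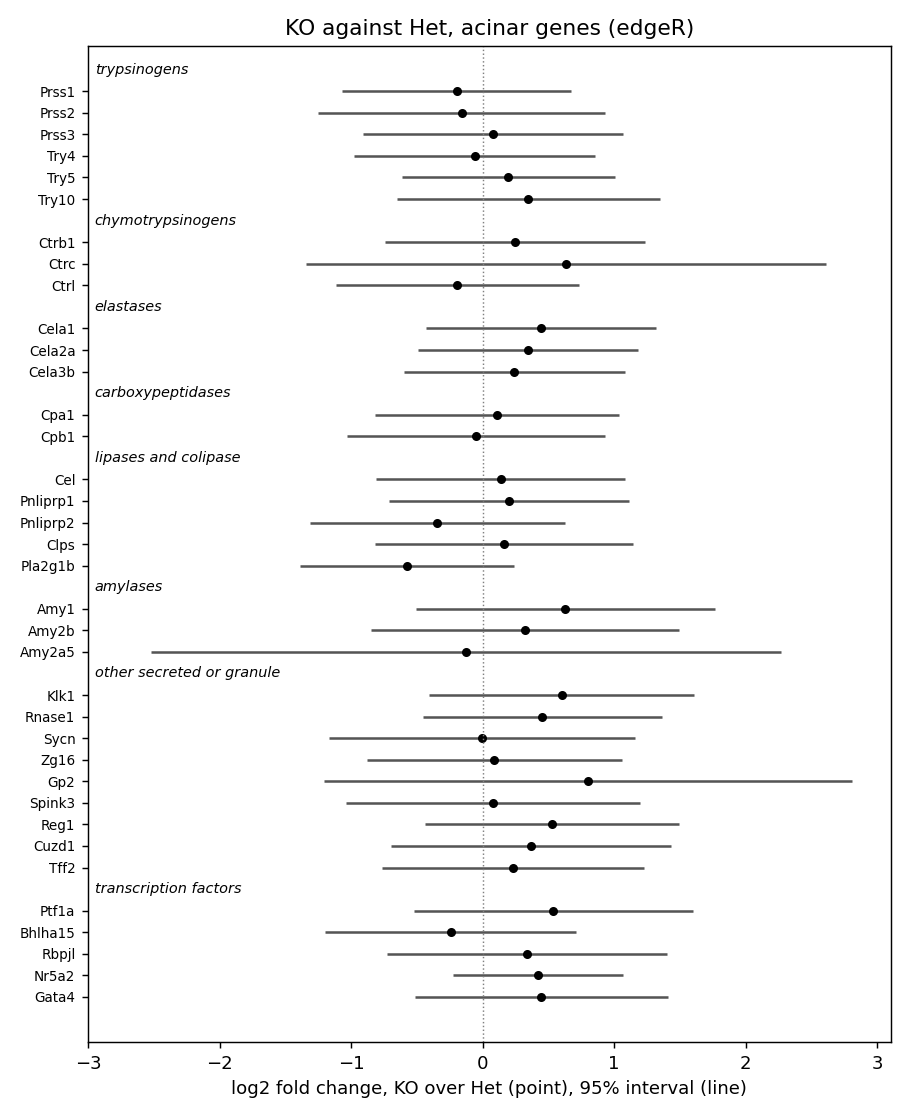
Log2 fold change of KO over Het (points) with its 95% interval (lines) for the 36 tested acinar genes, grouped by role. Every interval crosses 0; the estimates run from -0.58 for Pla2g1b to 0.80 for Gp2, whose interval is -1.20 to 2.81.

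Levels are given in CPM. KO values are in the order of replicates 8, 9, 17 and 24 and Het values in the order of 6, 7, 13 and 19. Trypsinogens are cleaved by enteropeptidase in the gut to trypsin, which then activates the other zymogens. Prss1 had 40.7, 113, 66.5 and 36.0 CPM in the KO libraries, against 99.0, 37.2, 93.5 and 64.5 CPM in the Het libraries. Its log2 fold change was -0.20, with a 95% interval of -1.07 to 0.67. Try5 had 51.5, 100.3, 50.0 and 40.3 CPM in the KO libraries, against 85.4, 30.8, 59.4 and 35.7 CPM in the Het libraries. Prss2 had 26.9, 85.4, 47.4 and 37.6 CPM in the KO libraries, against 103, 29.6, 66.7 and 21.2 CPM in the Het libraries. For Prss1 and Try5 the highest library was KO 9, for Prss2 it was Het 6, and in all 3 genes the genotypes overlapped. The other trypsinogens were lower, Try10 at 15.2 to 66.9 CPM in KO and 14.8 to 39.5 CPM in Het, Prss3 at 10.6 to 28.6 CPM in KO and 5.75 to 25.2 CPM in Het and Try4 at 10.6 to 23.9 CPM in KO and 7.71 to 28.2 CPM in Het. Of the 6 trypsinogens 3 had a positive and 3 a negative log2 fold change, with adjusted p from 0.805 to 0.971 by edgeR's test. Trypsinogen genes are near copies: 45.0% of the 100-base windows of the Prss3 transcripts also occur in another gene, Gm10334, and 25.6% of those of Try5 occur in Try4, so reads of these genes may be split between copies and their single values are uncertain. Windows were taken from GENCODE vM21 transcripts.

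Ctrb1, chymotrypsinogen B, carried most of the acinar signal. It had 12473, 38895, 15352 and 11079.5 CPM in KO 8, KO 9, KO 17 and KO 24, against 26676, 8277, 16732 and 13882 CPM in Het 6, Het 7, Het 13 and Het 19. KO 9 was the highest and Het 7 the lowest, and the spread within each genotype was wider than the gap between the means of 19449.6 ± 13085 CPM in KO and 16392 ± 7703 CPM in Het (SD, n = 4 each). The fit gave a log2 fold change of 0.25 ± 0.45 (SE), with a 95% interval of -0.74 to 1.23 and an adjusted p of 0.872 by edgeR's test. Of the reads on members, Ctrb1 took 59.3% ± 1.48 in KO libraries and 58.6% ± 4.15 in Het libraries (SD, n = 4 each), and the 5 most abundant members together made up 85.4% over all libraries. Ctrl, a chymotrypsin-like protease, had 12.5, 35.7, 16.4 and 17.9 CPM in the KO libraries, against 32.5, 9.52, 30.0 and 22.2 CPM in the Het libraries. Ctrc, chymotrypsin C, which also degrades trypsinogen, had 1.02, 7.498, 3.17 and 1.08 CPM in the KO libraries, against 1.16, 0.247, 2.91 and 3.95 CPM in the Het libraries. Ctrc stood at 14, 94, 42 and 12 reads in the KO libraries, against 15, 4, 33 and 39 reads in the Het libraries, so counting error is large in its lowest libraries. None of the 3 was called.

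Elastases cut proteins. Cela2a had 650.1, 1553, 711 and 583 CPM in the KO libraries, against 1091, 412, 789 and 461 CPM in the Het libraries. Cela1 had 224, 768, 429 and 265 CPM in the KO libraries, against 397, 168, 408 and 265 CPM in the Het libraries. Cela3b had 219, 629, 375 and 241 CPM in the KO libraries, against 454, 154, 353 and 277 CPM in the Het libraries. All 3 were highest in KO 9 and lowest in Het 7, the genotypes overlapped, and the log2 fold changes of 0.35, 0.44 and 0.24 had intervals that crossed 0, with adjusted p of 0.759, 0.691 and 0.850 by edgeR's test. Of the Cela2a windows 21.7% also occur in a transcript model annotated to Ctrc.

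Carboxypeptidases trim the C-terminal ends of peptides, Cpa1 at aromatic and aliphatic residues and Cpb1 at basic ones. Cpb1 had 1174, 2221, 1038 and 748 CPM in the KO libraries, against 2528, 803, 1415 and 631 CPM in the Het libraries. Cpa1 had 654, 2083, 793 and 679.9 CPM in the KO libraries, against 1632, 602, 954 and 716 CPM in the Het libraries. Cpb1 was highest in Het 6 and Cpa1 in KO 9, and their log2 fold changes of -0.054 and 0.11 lay close to 0 with wide intervals, of -1.03 to 0.93 for Cpb1 and -0.82 to 1.03 for Cpa1.

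The fat-digesting group includes the triglyceride lipase Pnlip, its relatives Pnliprp1 and Pnliprp2, the bile-salt-dependent lipase Cel, the phospholipase Pla2g1b, and colipase (Clps), which anchors lipase to fat droplets. Pnliprp1 had 2427, 7179.7, 3287 and 2189 CPM in the KO libraries, against 5187, 2165.9, 3683 and 2070.0 CPM in the Het libraries. Clps had 1278, 4125, 1878 and 1264 CPM in the KO libraries, against 3172, 927, 2072 and 1469 CPM in the Het libraries. Cel had 640.1, 1537, 723 and 455 CPM in the KO libraries, against 1357, 466, 781 and 444 CPM in the Het libraries. These 3 were highest in KO 9 with Het 6 next, and their log2 fold changes ran from 0.14 to 0.20. Pnliprp2 ranged over 30.5 to 125 CPM in KO and 58.0 to 168 CPM in Het, highest in Het 6, with a log2 fold change of -0.34. Pla2g1b, at 4.15 to 7.19 CPM in KO and 5.92 to 12.0 CPM in Het, was the member with the lowest log2 fold change, -0.58 ± 0.37 (SE), and an adjusted p of 0.563 by edgeR's test. Pnlip itself was near the floor with 9, 2, 5 and 0 reads in the KO libraries, against 7, 14, 3 and 3 reads in the Het libraries; it did not pass the filter, and a count of 0 in KO 24 allows up to 0.270 CPM (3 counts).

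Amylases split starch, and in the mouse Amy1 is the salivary and liver type while Amy2b and Amy2a5 belong to the pancreatic cluster. Amy2b had 397, 1189.5, 383 and 177 CPM in the KO libraries, against 589, 287, 624 and 219 CPM in the Het libraries. KO 9 was the highest and KO 24 the lowest, and the log2 fold change of 0.32 had an interval of -0.85 to 1.49. Amy1 had 23.8, 42.9, 8.75 and 9.70 CPM in the KO libraries, against 22.9, 12.2, 11.2 and 8.82 CPM in the Het libraries, highest in KO 9 and then in KO 8. Amy2a5 had 17.05, 7.34, 0.679 and 0.180 CPM in the KO libraries, against 2.55, 6.18, 16.5 and 2.43 CPM in the Het libraries. Amy2a5 went its own way, with its highest levels in KO 8 and Het 13 and only 2 reads in KO 24. Of its windows 47.4% are shared with Amy2a2, so its level cannot be assigned with certainty. The 3 genes had adjusted p from 0.664 to 0.978 by edgeR's test.

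Among the other secreted and granule proteins 8 had a positive log2 fold change and 1 a negative one, with a median of 0.37, and 0 were called. The most abundant was the ribonuclease Rnase1, at 239 to 879 CPM in KO and 195 to 476 CPM in Het. Syncollin (Sycn), a granule membrane protein, ranged over 129.7 to 551 CPM in KO and 126 to 524 CPM in Het, and the granule lectin Zg16 over 90.3 to 234 CPM in KO and 53.0 to 224 CPM in Het. The trypsin inhibitor Spink3 stood at 45.0 to 181 CPM in KO and 41.4 to 171 CPM in Het. All 4 were highest in KO 9 and their genotypes overlapped. The kallikrein Klk1 ranged over 49.4 to 214 CPM in KO and 45.9 to 108 CPM in Het, with a log2 fold change of 0.60 and an adjusted p of 0.634 by edgeR's test. Reg1, the secreted stone protein lithostathine, ranged over 32.3 to 155 CPM in KO and 33.999 to 73.8 CPM in Het, highest in KO 9 and next in KO 8. The remaining members Cuzd1, a granule membrane protein, and Tff2, a trefoil peptide, ranged over 11.2 to 29.9 CPM in KO and 5.996 to 21.6 CPM in Het, and over 7.09 to 16.9 CPM in KO and 3.75 to 13.7 CPM in Het. Gp2, the major glycoprotein of the granule membrane, had 46, 205, 33 and 53 reads in the KO libraries, against 104, 26, 63 and 2 reads in the Het libraries. Its log2 fold change of 0.80 ± 0.91 (SE) was the highest of all members. Without KO 9, which held 205 reads, it was -0.128, and without Het 19, which held 2 reads, it was 0.401. The positive sign therefore rests on KO 9.

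The 5 transcription factors were read at low to moderate levels, and all 5 were highest in KO 9. Ptf1a, the founding factor of the acinar programme, had 7.36, 31.2, 14.4 and 9.43 CPM in the KO libraries, against 14.8, 5.87, 8.74 and 13.7 CPM in the Het libraries. Rbpjl, its acinar partner in the PTF1 complex, had 20.1, 108, 54.4 and 37.5 CPM in the KO libraries, against 63.5, 20.4, 53.2 and 37.1 CPM in the Het libraries. Both were highest in KO 9, where Ptf1a was at 31.2 CPM and KO 8, KO 17 and KO 24 at 7.36 to 14.4 CPM. Bhlha15 (Mist1), which shapes the secretory apparatus, had 25.8, 109, 60.5 and 29.3 CPM in the KO libraries, against 90.1, 41.4, 60.2 and 74.3 CPM in the Het libraries. Nr5a2, a nuclear receptor that works with PTF1 at enzyme genes, had 17.9, 53.8, 40.3 and 33.2 CPM in the KO libraries, against 30.4, 29.0, 23.8 and 25.2 CPM in the Het libraries. Gata4, a zinc-finger factor of the early pancreas and of acinar cells, had 9.84, 27.2, 21.3 and 8.54 CPM in the KO libraries, against 17.5, 6.37, 12.5 and 12.8 CPM in the Het libraries. Log2 fold changes were 0.54 ± 0.48 for Ptf1a, 0.34 ± 0.48 for Rbpjl, -0.24 ± 0.43 for Bhlha15, 0.42 ± 0.29 for Nr5a2 and 0.45 ± 0.43 for Gata4 (SE). None was called, with adjusted p from 0.597 to 0.867 by edgeR's test. Of the 5 factors Nr5a2 varied least between Het libraries, with a mean of 36.3 ± 14.95 CPM in KO and 27.1 ± 3.07 CPM in Het (SD, n = 4 each).

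Levels can be compared between genes only per length, here as the mean CPM over the 8 libraries per kb of the longest GENCODE vM21 transcript sequence. On that scale Ctrb1 led with 20411 CPM per kb, followed by Clps with 3311, Pnliprp1 with 2176, Cela2a with 730.1, Cpa1 with 641, Cpb1 with 486 and Sycn with 484. Trypsinogens were far lower, with 85.5 CPM per kb for Prss1 and 64.0 for Prss2. Among the factors Rbpjl had 20.1, Bhlha15 17.6, Ptf1a 8.74, Nr5a2 6.70 and Gata4 4.26 CPM per kb. The lowest members were Pnlip with 0.266, Amy2a5 with 1.78, Gp2 with 2.66 and Ctrc with 2.75 CPM per kb. These ranks depend on the transcript taken. The longest had 3715 bases for Amy2a5 and 1577 for Amy2b, and 2718 for Cpb1 and 1583 for Cpa1.

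The members varied from library to library more than most genes did. The median within-genotype SD of log2 CPM was 0.772 over the 36 tested members and 0.399 over all 14116 tested genes. For genes averaging 10 CPM or more it was 0.770 over 31 members and 0.313 over 9813 genes. The members also followed the same order. KO 9 was the highest of all 8 libraries for 30 of the 36 and the highest KO library for 34, and Het 6 was the highest Het library for 30. KO 9 and Het 6 both stood above the other 6 libraries for 26 members, and Het 7 was the lowest of all 8 for 17.

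**Figure D3:**
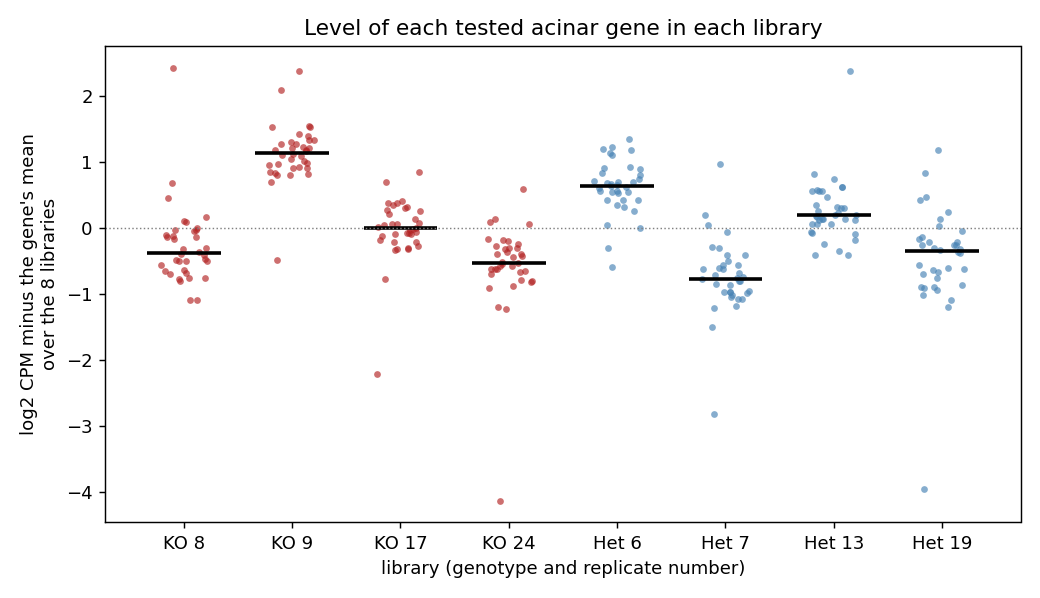
Log2 CPM minus the gene's mean over the 8 libraries (vertical axis) for each of the 36 tested acinar genes (points) in each library, with bars at the medians, KO libraries on the left. KO 9 was the highest library for 30 of the 36 genes, Het 6 the highest Het library for 30, and Het 7 the lowest library for 17.

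To see what was left after this common variation, each member was expressed per 1000 Ctrb1 counts of its own library, a measure chosen after seeing the data. The coefficient of variation (SD over mean, 8 libraries) of 35 members had a median of 53.2% on the CPM scale and 25.3% per 1000 Ctrb1 counts, and it was smaller on the second scale for 31 of them. Pla2g1b, Amy2a5, Tff2 and Nr5a2 were the exceptions. The median ratio of the highest to the lowest library was 4.45 for CPM and 2.15 for the ratio to Ctrb1. Colipase followed Ctrb1 most closely. Clps had 102, 106, 122 and 114 per 1000 in the KO libraries, against 119, 112, 124 and 106 per 1000 in the Het libraries, a coefficient of variation of 7.09%. Cpa1 came next with 52.5, 53.6, 51.6 and 61.4 per 1000 in the KO libraries, against 61.2, 72.7, 57.0 and 51.6 per 1000 in the Het libraries. Bhlha15 had 2.07, 2.80, 3.94 and 2.64 per 1000 in the KO libraries, against 3.38, 5.004, 3.60 and 5.35 per 1000 in the Het libraries, and Prss1 had 3.26, 2.91, 4.33 and 3.25 per 1000 in the KO libraries, against 3.71, 4.49, 5.59 and 4.65 per 1000 in the Het libraries, both with lower KO than Het means but with overlapping values. Of the 35 members 0 had groups that did not overlap on this scale, and the smallest unadjusted exact two-sided permutation p was 0.0571, for Prss1, where 70 assignments allow 0.0286 at the least. Bhlha15 came next at 0.0857 by the same permutation test. Both are shown because they had the smallest values among the 35 members, so neither is a finding. Dividing by Ctrb1 removes anything that Ctrb1 shares with a member, so the ratios say how members differ from Ctrb1 and nothing of the amount of acinar RNA.

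**Figure D4:**
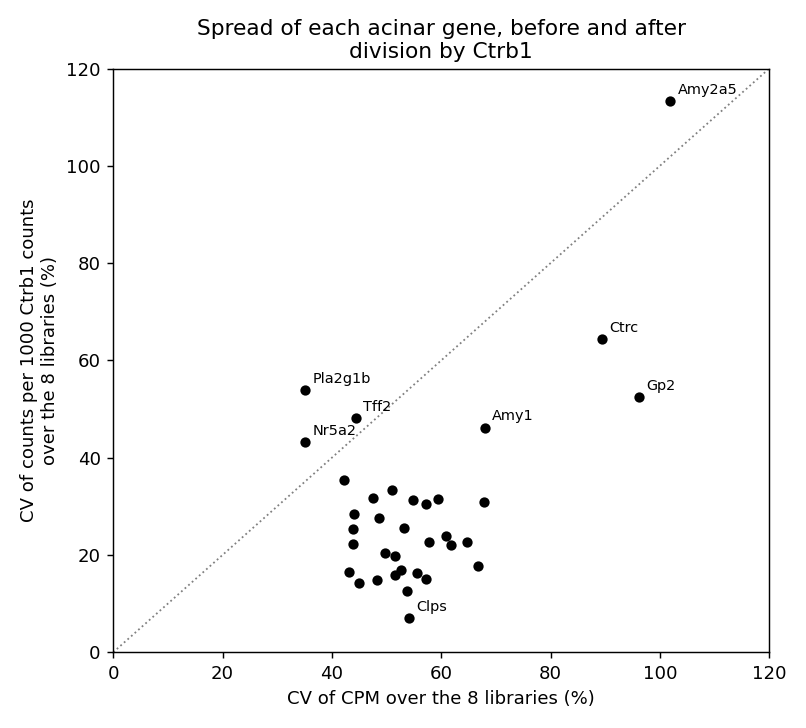
Coefficient of variation over the 8 libraries for 35 acinar genes, on the CPM scale (horizontal, %) and per 1000 Ctrb1 counts (vertical, %), with a dotted line of equality. In all, 31 of the 35 points lie below the line, with Clps lowest at 7.09%, and Pla2g1b, Amy2a5, Tff2 and Nr5a2 lie above it.

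A second list of 31 other acinar genes, for further enzymes, secretagogue receptors and granule trafficking proteins, had 27 in the files and 21 tested. None was called in either direction by edgeR, and the median log2 fold change was 0.062. Cckar, the receptor for the secretagogue cholecystokinin, and Pdia2, a pancreatic protein disulfide isomerase, were among its more abundant genes. Cckar had 114, 432, 169 and 96.9 CPM in the KO libraries, against 281, 104, 182 and 94.8 CPM in the Het libraries. Pdia2 had 132, 344, 127 and 79.6 CPM in the KO libraries, against 225, 94.0, 149.8 and 95.1 CPM in the Het libraries. Both were highest in KO 9 with Het 6 next, and their genotypes overlapped. The exceptions to the overlap were 3 genes, named after their values were seen, against 8.03% of all tested genes. Rab3d, a small GTPase of secretory granules, had 42.0, 79.5, 77.4 and 56.7 CPM in the KO libraries, against 111, 115, 104 and 103 CPM in the Het libraries. Its log2 fold change was -0.76 ± 0.20 (SE), with an adjusted p of 0.128 by edgeR's test, 0.0202 by DESeq2 and 0.0298 by limma-voom with weights. Chrm3, the muscarinic receptor through which acetylcholine drives enzyme release, had 18.1, 30.1, 17.9 and 32.7 CPM in the KO libraries, against 5.18, 8.53, 13.9 and 15.01 CPM in the Het libraries. Its log2 fold change was 1.22 ± 0.37 (SE), with an adjusted p of 0.199 by edgeR's test, 0.0433 by DESeq2 and 0.0861 by limma-voom with weights. Both genes are also expressed in other secretory cells, endocrine cells included. The last was Dnase1, a secreted nuclease, at 2.31 to 4.40 CPM in KO and 5.30 to 7.34 CPM in Het, with an adjusted p of 0.415 by edgeR's test.

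Among the genes whose log2 CPM followed the mean of the tested members most closely over the 8 libraries were Sypl, a synaptophysin-like vesicle protein (Pearson r 0.986), Cckar (0.979), Pdia2 (0.972) and Zfp143 (0.961), with Tmem97, Gjb1, Pm20d1, Aqp8 and Reep5 from 0.942 to 0.957. Over these genes Spearman's rho ran from 0.857 for Reep5 to 1 for Sypl. Leaving out KO 9 and Het 6, the libraries farthest from the median, gave r from 0.779 for Reep5 to 0.978 for Sypl. These are descriptions over 8 libraries prepared with the same protocol, and Cckar, Pdia2 and Aqp8 were also on the second list. Sypl varied far less than the enzymes did, with 155, 214, 162 and 137 CPM in the KO libraries, against 202, 131, 175 and 149 CPM in the Het libraries.

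Endocrine markers were abundant in every library with a summed level over 14 genes of 22813 to 44759 CPM in KO and 67271 to 93708 CPM in Het. Abundant hormone genes weigh most in that sum, such as Gcg at 11647 to 20672 CPM in KO and 30174 to 31502 CPM in Het. Other markers overlapped, such as Chga at 576 to 1397 CPM in KO and 1069 to 1581 CPM in Het. The sum is thus no measure of how many endocrine cells a library held. The acinar genes summed to 18635 to 63428 CPM in KO and 15117 to 45530 CPM in Het, so in KO 9 they exceeded the endocrine sum of 27125 CPM. Duct markers (10 genes) summed to 722 to 851 CPM in KO and 573 to 785 CPM in Het, with the highest value in KO 9 and the lowest in Het 19. KO 8 stood apart in mesenchyme markers (11 genes), with 9794 CPM, where KO 9, KO 17 and KO 24 held 374 to 538 CPM and Het 266 to 1232 CPM. Leukocyte markers (8 of 9 in the files) were at 479 CPM in KO 8 and 272 CPM in KO 9, with 14.9 to 41.9 CPM in KO 17 and KO 24 and 19.9 to 63.1 CPM in Het. Endothelial markers (8 genes) summed to 8.37 to 30.5 CPM in KO and 9.19 to 16.6 CPM in Het. Of 7 erythroid markers 4, the globin genes Hba-a1, Hba-a2, Hbb-b1 and Hbb-b2, were listed at 0 in all libraries. How reads were counted is not given, so a listed 0 may not mean absence. By edgeR's test 4 of 14 endocrine markers were lower in KO, 1 of 10 duct and 1 of 6 tested endothelial markers were higher, and 0 mesenchyme, leukocyte and erythroid markers were called. The 4 endocrine markers include Neurod1, the targeted gene. Over all 14116 tested genes 96 were lower and 48 higher in KO. The part of these other cells in the acinar values was not tested. The members' median log2 fold change was 0.22 with KO 8 and 0.34 without it.

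**Figure D5:**
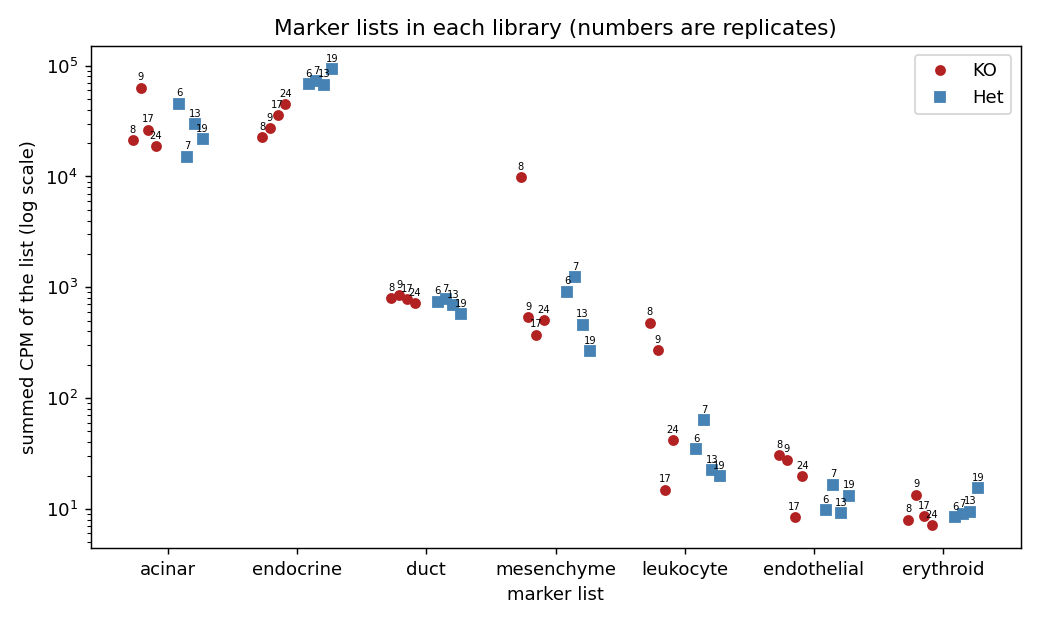
Summed CPM (log axis) of the acinar genes and of 6 marker lists in each library, with KO as circles on the left and Het as squares on the right of each list; numbers are replicates. Acinar sums of 18635 to 63428 CPM in KO overlap the 15117 to 45530 CPM in Het, endocrine sums are lower in all KO libraries, and KO 8 stands apart at 9794 CPM of mesenchyme markers.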

How the data were processed

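Per the labels' protocols, RNA with an integrity number above 8 from sorted cells was amplified with the NuGEN Ovation V2 kit and sequenced as single-end reads of 100 bases. The kit amplifies cDNA and the reads carry no molecular identifiers, so the Wilson intervals and the floors of 3 counts cover counting error only; intervals of log2 fold changes come from the fit and rest on the spread between libraries. The authors deposited raw counts per gene symbol, 1 column per library. They also deposited a table of their comparison with a mean signal per group (normalized counts, per the file headers), the authors' fold change as a ratio, its log2, and p-values. The submitters' processing notes name the build mm9 and, with no roles, DESeq, Cufflinks 2.0.2, TopHat2 2.1.0 and bcl2fastq 1.8.4. How reads were counted, on which annotation, and what became of reads with several matches is not given in the sources used here.

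Libraries were grouped by their labelled genotype; no per-sample column was left unmatched and no 2 libraries held the same values. From the counts, edgeR 4.0.16 (R 4.3.3) kept 14116 genes by filterByExpr (minimum count 10, minimum total 15), scaled by TMM, and compared KO with Het by the quasi-likelihood F test, two-sided, with Benjamini-Hochberg adjustment over all tested genes and a threshold of 0.05. CPM use TMM-scaled totals, and log2 CPM a prior count of 2. DESeq2 1.42.0 and limma 3.58.1 (voom with sample quality weights) were run beside it, and the script was tested on simulated data. Alternatives were other scalings and filters, a robust fit, and each library left out. At these depths 3 counts stand for 0.185 to 0.304 CPM. The members and lists were chosen with earlier results of these data known, and all 37 members are named. The rule gave values in every library to the 3 most abundant members of each enzyme group and to the 5 factors, and ranges to the rest. In the list of other acinar genes, 1 gene is counted but not reported here by name. Transcript windows were compared with GENCODE vM21 (GRCm38), another build than mm9, so it gave only lengths and near copies. RefSeq promoter coordinates are of GRCm38.p6.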

Additional observations from a re-analysis of the deposited data

Results flagged for a closer look

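In groups of 4 libraries, a value was looked at again when its gap to the nearest other value took up more of the group's range than the 95% critical value of Dixon's test allows. Of 76 groups examined 5 passed, where chance gives about 1 in 20. In 4 of them KO 9 lay above the other KO libraries: Ctrb1 at 38900 CPM (a gap of 0.846 of the range), Cela2a at 1550 CPM (0.867), Cpa1 at 2080 CPM (0.903) and Gp2 at 16.4 CPM (0.836). In the other, Het 6 lay above the other Het libraries, with Pnliprp2 at 168 CPM (0.849). These are the 2 libraries with the highest acinar share in their genotypes. The flagged genes are part of that share and the members vary together, so the flags are not separate observations.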

How the results depend on the processing

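No paired analysis was possible because the genotypes share no replicate numbers. Under all 16 alternatives 0 members were called. Of 576 member values 518 kept the direction and the side of the threshold, 58 changed sign and 0 passed the threshold; 30 members changed sign in some fit that left out 1 library. Genes called over the whole table were 144 in the fit reported, 142 by median-ratio factors, 128 by total counts, 144 with TMM and library sizes from the non-acinar genes, 183 with a robust fit, 145 with no filter, 165 at 2 CPM in 4 libraries, 521 by DESeq2, 500 by limma-voom with weights, and from 29 (without Het 13) to 285 (without KO 8) when 1 library was left out. By total counts the log2 fold change was 0.006 for Cpb1 and 0.056 for Sycn, and all genes shifted by a median of 0.09 against 0.03. By limma-voom it was 0.094 for Prss2, -0.064 for Prss3, 0.14 for Try4, -0.208 for Amy2b and -0.016 for Reg1, and for Amy2a5 it was -3.009 against -0.13 in the fit reported; the cause was not tested. Limma-voom had 2 members at an unadjusted p under 0.05, and edgeR had 1 without KO 8. Leaving out 1 library gave these lowest and highest log2 fold changes: Amy2a5 -1.353 to 0.753, Amy2b -0.432 to 0.594, Cel -0.331 to 0.572, Cela1 -0.018 to 0.641, Cela2a -0.088 to 0.657, Cela3b -0.155 to 0.484, Clps -0.375 to 0.519, Cpa1 -0.462 to 0.473, Cpb1 -0.447 to 0.446, Ctrb1 -0.339 to 0.584, Ctrc -0.224 to 1.142, Ctrl -0.596 to 0.002, Cuzd1 -0.001 to 0.672, Gp2 -0.128 to 1.448, Klk1 -0.057 to 0.921, Pnliprp1 -0.315 to 0.513, Pnliprp2 -0.767 to 0.145, Prss2 -0.564 to 0.331, Prss3 -0.219 to 0.299, Ptf1a -0.049 to 0.759, Rbpjl -0.222 to 0.604, Reg1 -0.033 to 0.766, Rnase1 -0.074 to 0.673, Spink3 -0.477 to 0.626, Sycn -0.625 to 0.539, Tff2 -0.134 to 0.539, Try10 -0.234 to 0.607, Try4 -0.339 to 0.334, Try5 -0.162 to 0.526 and Zg16 -0.286 to 0.481. The summed share without Ctrb1 was 1.32% in KO and 1.13% in Het, smaller by construction. Low members such as Ctrc, Gp2, Amy2a5 and Pnlip are limited by counts of a few reads in some libraries, and near-identical trypsinogen and amylase genes by shared sequence.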
